A study of Rattus norvegicus with 151 samples.

Results

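The comparison described here is that of livers from rats given low doses of crude MCHM with livers from rats given only corn oil. Crude MCHM is the technical mixture, mostly 4-methylcyclohexanemethanol (MCHM), that was spilled into the drinking water of West Virginia. Its 15 low dose liver arrays (3 at 0.1 mg/kg and 4 each at 1, 10 and 100 mg/kg) were pooled as the mean of the 4 dose group means, and were set against the 4 liver arrays of the same chemical set at 0 mg/kg. These are 19 of the 151 arrays of the series. One probe set stood for each gene, and the 11402 genes that passed a filter on low values were all tested.

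All animals were male Harlan Sprague-Dawley rats of 6-8 weeks that received the test article in corn oil, or corn oil alone, by oral gavage on 5 consecutive days. Messenger RNA was measured on Affymetrix whole-genome rat arrays, with 1 array for each piece of tissue. The same set had 4 livers at 300 mg/kg and 4 at 500 mg/kg, and further sets of rats received MCHM itself or PPH (propylene glycol phenyl ether), each with a corn oil group of its own. A single liver is named by the number at the end of its label, as in liver-104. The labels do not say that each number is a separate rat, so the p-values measure the spread between these samples. Bulk liver RNA does not tell fewer cells of a type from less RNA per cell.

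The liver is the organ that clears alcohols such as MCHM from blood, by oxidation and by coupling to glucuronic acid, glycine or glutathione. Foreign chemicals act there through receptors and sensors: CAR and PXR raise cytochrome P450 and conjugating enzymes, AhR raises the Cyp1 enzymes, Nrf2 raises antioxidant enzymes, and PPAR-alpha raises fatty acid oxidation. The liver also changes its transcripts with feeding and with the hour of day, through genes of fasting, fat synthesis and amino acid supply.

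The arrays were alike in their technical measures. Array medians lay between 5.29 and 5.35 log2 units in low dose livers and between 5.32 and 5.35 in vehicle livers. The difference between the 5′ and the 3′ control probe sets of beta-actin, a sign of RNA quality, lay between -1.43 and -1.18 log2 units in low dose livers and between -1.29 and -1.19 in vehicle livers. The lowest correlation between any 2 liver arrays of the crude MCHM set was 0.989, and no 2 columns were identical. The 11 hepatocyte markers found on the array all passed the filter. Their mean lay between 13.57 and 13.69 in low dose livers and between 13.59 and 13.62 in vehicle livers.

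No gene passed the test for a difference between low dose and vehicle livers. With limma and Benjamini-Hochberg adjustment, 0 of 11402 genes (0%) had an adjusted p under 0.05, and the smallest adjusted p was 0.304. At an unadjusted p under 0.05 there were 788 genes (6.91%), of which 554 were higher in low dose livers (4.86% of all genes) and the rest lower (2.05%). The change was above 0 in 54.1% of genes, with a median over all genes of 0.0085 log2 units. None of the values below is therefore a called difference, and single genes are given as measurements.

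The intervals show what size of change the data allow. The median standard error of the difference was 0.0859 log2 units. The 95% interval of the change lay within 1.5-fold in either direction for 96.9% of the genes and within 2-fold for 99.4%. The measured difference reached 1.5-fold in 33 genes and 2-fold in 7. The low dose livers were thus bounded closely for most genes, and the wide intervals belonged to genes that varied within a group.

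**Figure D1:**
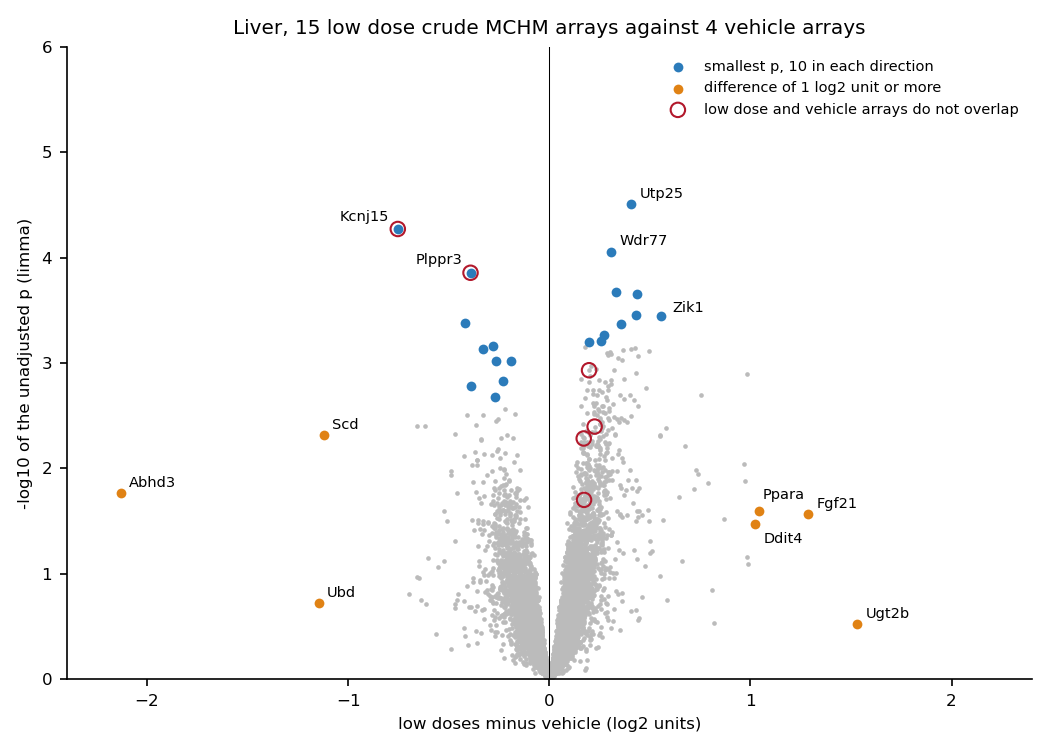
Difference of low dose minus vehicle livers in log2 units (x axis) against -log10 of limma's unadjusted p (y axis) for the 11402 genes tested. Blue points are the 10 genes of smallest p in each direction, orange points the 7 genes that differed by 2-fold or more, and red rings the 6 genes whose 15 low dose and 4 vehicle arrays do not overlap; the genes of large difference have larger p than Utp25 or Kcnj15.

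Of the 10 genes with the smallest p among those higher in low dose livers, Utp25, Nol8 and Pak1ip1 are given first. They act in the nucleolus, where ribosomes are assembled. They were grouped after the values were seen, and the share of such genes among all genes tested was not counted. Utp25, a component of the small subunit processome that trims ribosomal RNA, lay between 6.45 and 7.02 log2 units in low dose livers with a median of 6.83, against 6.46, 6.33, 6.39 and 6.30 in vehicle livers. All but 1 of the 15 low dose livers, liver-123 at 10 mg/kg, lay above every vehicle liver. The means were 6.78 ± 0.16 (SD, n = 15) and 6.37 ± 0.07 (SD, n = 4), which is 1.33-fold with a 95% interval of 0.24 to 0.57 log2 units (limma, adjusted p = 0.304). Nol8, a nucleolar protein, lay between 5.99 and 6.57 in low dose livers with a median of 6.32, against 5.94, 5.63, 5.70 and 6.09 in vehicle livers. Vehicle liver-108 alone reached into the low dose range, and the difference was 0.44 with an interval of 0.23 to 0.65 (adjusted p = 0.38). Pak1ip1, which acts in the assembly of the large ribosomal subunit, lay between 6.96 and 7.40 with a median of 7.11 in low dose livers, against 7.00, 6.72, 6.79 and 6.94 in vehicle livers, a difference of 0.27.

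Other genes of these 10 handle RNA, amino acids or redox state. Wdr77, the partner of the arginine methyltransferase Prmt5, lay between 8.09 and 8.68 log2 units in low dose livers with a median of 8.50, against 8.12, 8.01, 8.26 and 8.17 in vehicle livers. Its difference was 0.31 with an interval of 0.17 to 0.44. Slc3a2, the heavy chain shared by several amino acid transporters, lay between 9.30 and 10.39 with a median of 9.91 in low dose livers, against 9.45, 9.39, 9.53 and 9.57 in vehicle livers. Liver-120 at 1 mg/kg was the lowest of all 19, while the other low dose livers lay above every vehicle liver, and the difference was 0.43. Txnrd1, the cytosolic thioredoxin reductase and an Nrf2 target, lay between 9.42 and 9.96 with a median of 9.59, against 9.36, 9.38, 9.35 and 9.43. Prpf19, a splicing factor and ubiquitin ligase, lay between 8.77 and 9.07 with a median of 9.01, against 8.83, 8.75, 8.76 and 8.80.

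The remaining genes of the 10 with the smallest p were Aen, a nuclease of the p53 response, with 6.99 ± 0.18 in low dose and 6.66 ± 0.08 in vehicle livers, the zinc finger gene Zik1 with 4.69 ± 0.23 and 4.14 ± 0.20, and Kti12, whose yeast counterpart takes part in tRNA modification, with 8.81 ± 0.24 and 8.45 ± 0.04 (SD, n = 15 and 4). In Zik1 the low dose mean lay at the filter on low values and the vehicle mean under it. All 10 genes had an adjusted p between 0.304 and 0.38. Each was above the vehicle mean at 0.1, 1, 10 and 100 mg/kg, with no order by dose: Wdr77, for example, differed by 0.49, 0.07, 0.34 and 0.34 log2 units at these doses. Without liver-129 at 100 mg/kg, 2 genes passed the test, Kti12 with 0.39 and Utp25 with 0.43 (limma, adjusted p = 0.0245 each).

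Among the genes lower in low dose livers, Kcnj15 and Plppr3 had the smallest p. Kcnj15, an inward rectifier potassium channel, lay between 4.09 and 5.45 log2 units in low dose livers with a median of 5.05, against 5.55, 5.62, 5.73 and 5.73 in vehicle livers. The groups did not overlap, and the difference was -0.75 with an interval of -1.07 to -0.44 (limma, adjusted p = 0.304). Plppr3, a phospholipid phosphatase related membrane protein, lay between 5.80 and 6.30 with a median of 6.13 in low dose livers, against 6.39, 6.53, 6.65 and 6.34 in vehicle livers, again with no overlap. Its difference was -0.39 with an interval of -0.57 to -0.21 and stood between -0.43 and -0.36 at the 4 doses.

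Fabp7, a fatty acid binding protein, lay between 11.69 and 12.11 log2 units in low dose livers with a median of 11.86, against 12.04, 12.18, 12.24 and 12.18 in vehicle livers. Only 1 low dose liver reached the range of the vehicle livers, and the difference was -0.28. Fabp7 differed from vehicle by -0.25, -0.20, -0.29 and -0.37 log2 units at 0.1, 1, 10 and 100 mg/kg. At the higher doses it fell by 0.49 at 300 mg/kg (adjusted p = 0.0112) and by 0.72 at 500 mg/kg (adjusted p = 0.000115), against the same vehicle arrays. The change at 500 mg/kg held against the low dose livers too, by -0.44 (limma, adjusted p = 0.00131).

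The other genes with the smallest p in this direction differed by less than 0.5 log2 units. The ubiquitin ligase Rnf19b averaged 4.82 ± 0.17 in low dose and 5.24 ± 0.29 in vehicle livers, and the natural killer cell receptor Ncr3 averaged 4.52 ± 0.15 and 4.85 ± 0.14, both close to the filter on low values. Pigu, a subunit of the transamidase that attaches lipid anchors to proteins, averaged 7.62 ± 0.18 and 7.89 ± 0.07. The acetyl-CoA transporter Slc33a1 averaged 10.40 ± 0.10 and 10.59 ± 0.07, and the dynein adaptor subunit Dctn1 averaged 6.74 ± 0.13 and 6.97 ± 0.10. Unc5cl, a death domain signalling protein, averaged 6.40 ± 0.21 and 6.79 ± 0.12, and the uroplakin Upk3a averaged 4.99 ± 0.15 and 5.26 ± 0.16 (SD, n = 15 and 4).

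In 6 genes (0.0526% of those tested) the 15 low dose and the 4 vehicle livers did not overlap. Kcnj15 and Plppr3 were lower (0.0175%), and 4 genes were higher (0.0351%), by less than 0.25 log2 units. Rpp14, a subunit of the ribonuclease P complex that trims tRNA, lay between 8.33 and 8.63 in low dose livers with a median of 8.51, against 8.32, 8.26, 8.31 and 8.28 in vehicle livers. Nup54, a nuclear pore protein, lay between 6.48 and 6.85 with a median of 6.62, against 6.47, 6.40, 6.40 and 6.40. The telomere protein Terf2ip lay between 7.86 and 8.21 with a median of 7.97, against 7.83, 7.85, 7.80 and 7.82. Ppp2r2d, a regulatory subunit of protein phosphatase 2A, lay between 8.34 and 8.60 with a median of 8.44, against 8.31, 8.32, 8.32 and 8.15. In all 4 genes the highest vehicle liver lay just under the lowest low dose liver, and 1 vehicle liver stood apart in Nup54 (liver-104 at 6.47) and in Ppp2r2d (liver-108 at 8.15). The adjusted p of the 4 genes lay between 0.402 and 0.585 (limma).

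**Figure D2:**
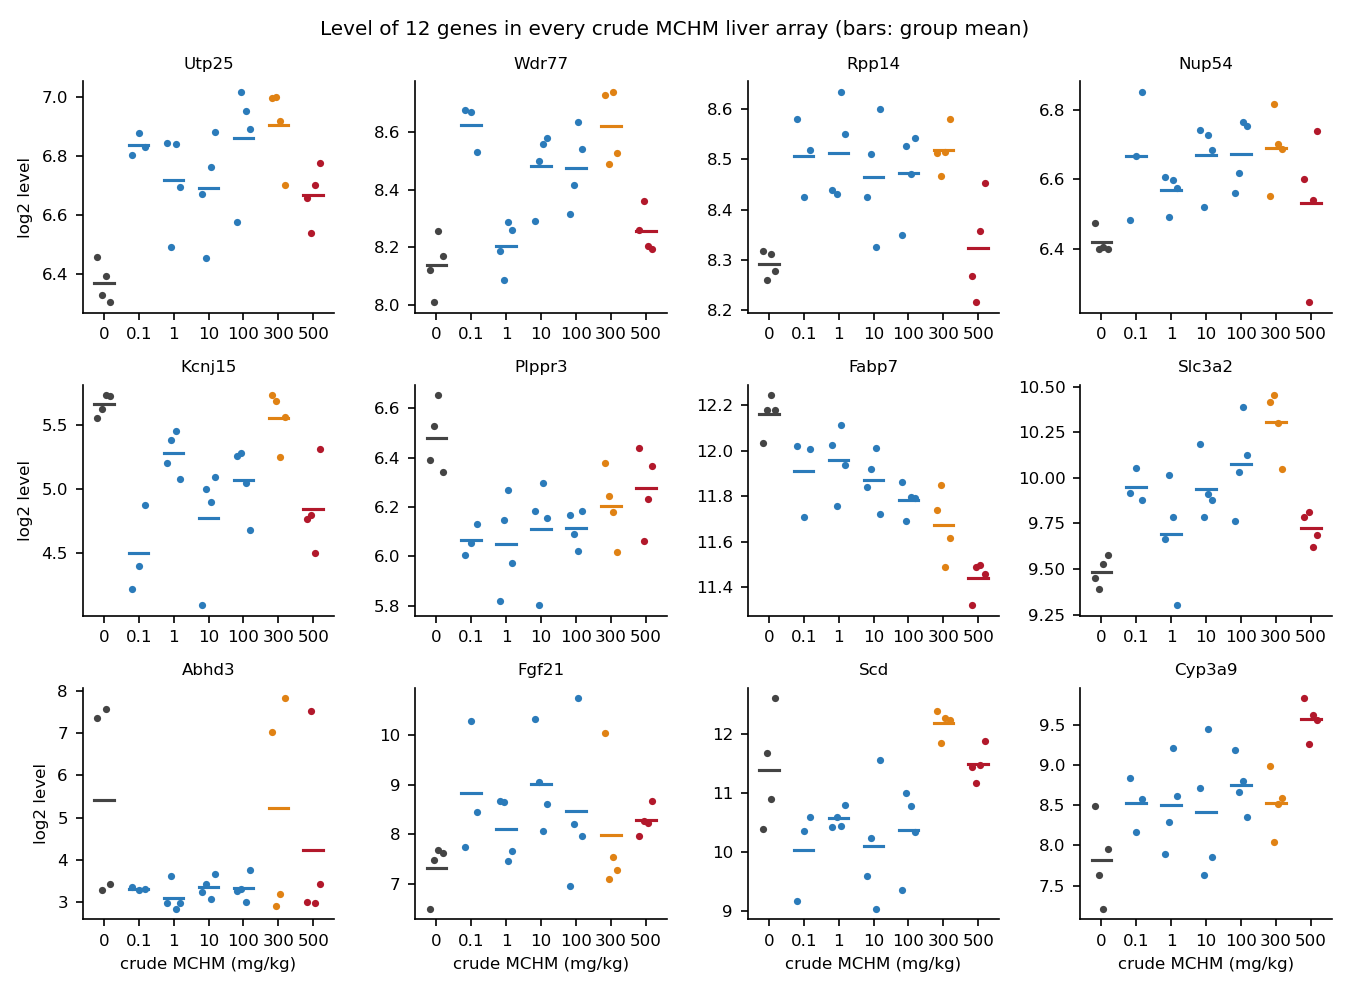
Log2 level (y axis) of 12 genes in every crude MCHM liver array by dose in mg/kg (x axis), with points for arrays and bars for group means. The vehicle arrays of Utp25, Rpp14 and Nup54 lie at the bottom of their panels and those of Kcnj15 and Plppr3 at the top, Abhd3 takes only values near 3 or above 7, and Fabp7 is lowest at 500 mg/kg.

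The 7 genes that differed by at least 2-fold had wide spreads within their groups. Abhd3, a phospholipase that acts on phosphatidylcholines, lay between 2.86 and 3.76 log2 units in low dose livers with a median of 3.29, against 7.35, 3.29, 7.57 and 3.45 in vehicle livers. It thus had 1 level among low dose livers and 2 among vehicle livers, and the difference of -2.13 had an interval of -3.85 to -0.41 (limma, adjusted p = 0.581). The high level was seen at the higher doses too, where Abhd3 had 7.82, 7.01, 2.91 and 3.20 at 300 mg/kg and 7.53, 2.98, 3.43 and 3.01 at 500 mg/kg. Every low dose value and the lower vehicle values of Abhd3 lay under the filter on low values, 4.69 log2 units. The gene passed this filter only through vehicle and higher dose livers. The probe set named Ugt2b, from a family of glucuronosyltransferases with closely related sequences, lay between 4.95 and 13.46 in low dose livers with a median of 13.21, against 13.10, 13.38, 13.45 and 4.81 in vehicle livers. Its low values came from single livers, liver-130 at 100 mg/kg and vehicle liver-108, and its difference of 1.53 had an interval of -1.45 to 4.51. Without vehicle liver-108 the difference in Ugt2b was -0.59.

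Fgf21, a liver hormone of fasting and cell stress, lay between 6.95 and 10.74 log2 units in low dose livers with a median of 8.45, against 6.50, 7.48, 7.68 and 7.62 in vehicle livers. Most low dose livers were above the vehicle range, yet they spread over nearly 4 log2 units, and the difference of 1.29 had an interval of 0.16 to 2.41 (limma, adjusted p = 0.631). Scd, the stearoyl-CoA desaturase that makes monounsaturated fatty acids, lay between 9.04 and 11.56 with a median of 10.43 in low dose livers, against 10.38, 11.69, 10.89 and 12.61 in vehicle livers. The groups overlapped, and the difference was -1.12 with an interval of -1.87 to -0.38 (adjusted p = 0.435). Ppara, the nuclear receptor that drives fatty acid oxidation, lay between 4.57 and 7.18 with a median of 6.33, against 6.73, 4.51, 4.55 and 4.85, where vehicle liver-104 stood among the low dose livers. Ddit4, an inhibitor of mTORC1, averaged 8.01 ± 0.95 in low dose and 6.98 ± 0.53 in vehicle livers. Ubd, a ubiquitin-like protein of inflammation, averaged 6.30 ± 1.67 and 7.45 ± 1.27 (SD, n = 15 and 4).

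Gene lists of liver pathways were read by how many members differed at an unadjusted p under 0.05, beside the 4.86% of all genes that were higher and the 2.05% that were lower. None of the 31 pathway lists had a member at an adjusted p under 0.05 (limma, 0 genes). The list medians lay between -0.19 and 0.11 log2 units, against 0.0085 over all genes. The counts rest on 4 vehicle livers. Leaving out 1 of them at a time moved the count of higher or of lower members by over 1.5 times, or between 0 and above, in 29 of the 31 lists, and turned the sign of the median in 16. Values without vehicle liver-104 or liver-108 are given beside several lists.

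**Figure D3:**
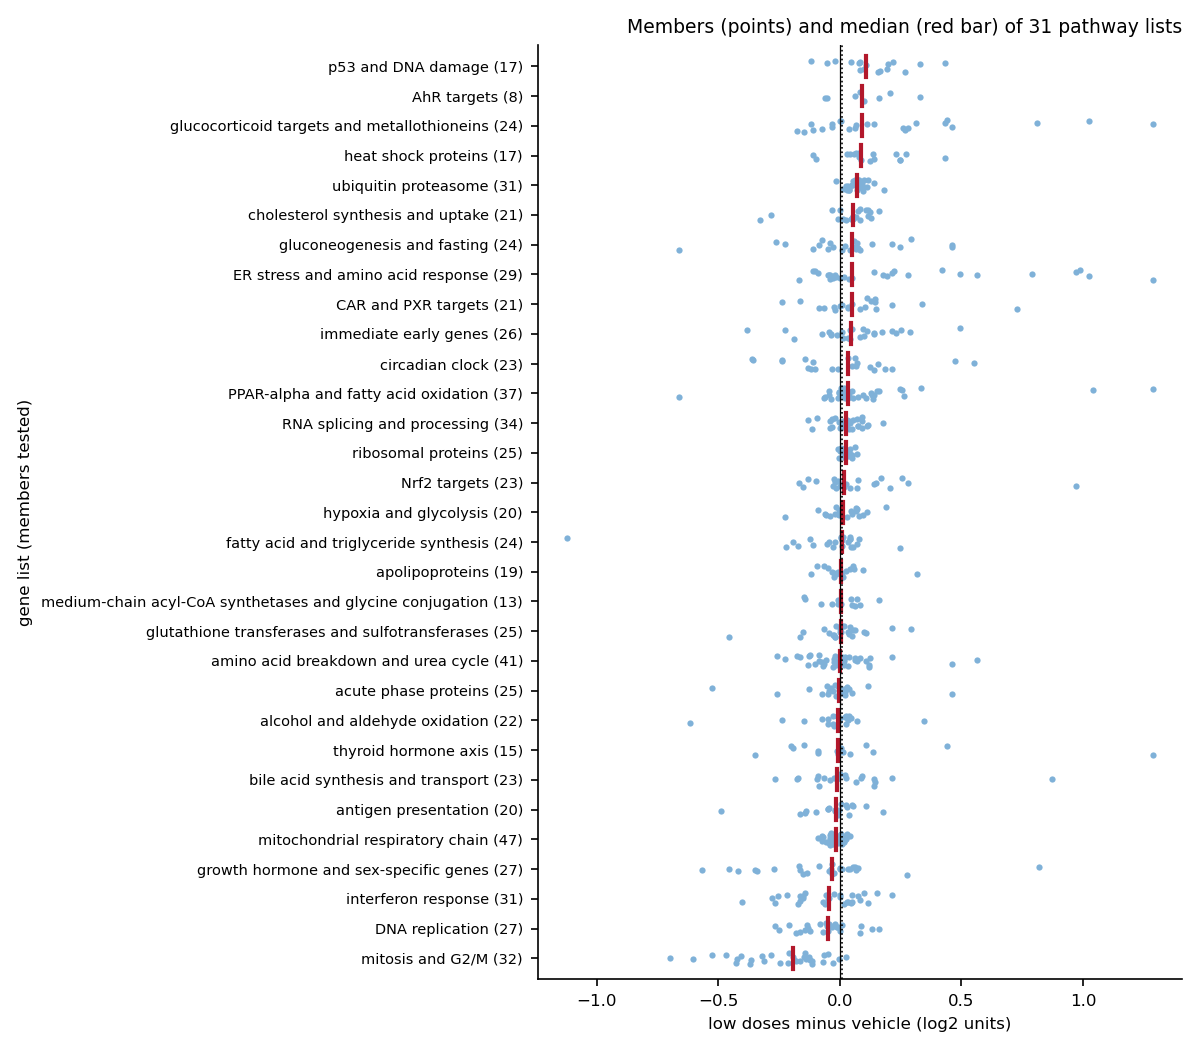
Difference of low dose minus vehicle livers in log2 units (x axis) for the members of 31 pathway lists (points, with the number tested in brackets) and the list median (red bar); the dotted line is the median of all genes. The mitosis list has the lowest median at -0.19 and the p53 list the highest at 0.11.

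Targets of the sensors of foreign chemicals differed in few members. Of 21 CAR and PXR targets, 2 were higher and 1 lower at an unadjusted p under 0.05. Without vehicle liver-104, 5 were higher, without liver-106 none was, and without liver-105 or liver-108 there was 1. Cyp3a9, a cytochrome P450 of the Cyp3a family, lay between 7.63 and 9.45 log2 units in low dose livers with a median of 8.61, against 8.48, 7.63, 7.21 and 7.95 in vehicle livers. Of the 15 low dose livers 9 lay above every vehicle liver, and the difference was 0.73 with an interval of 0.19 to 1.27 (limma, adjusted p = 0.53). Alas1, the first enzyme of heme synthesis, averaged 10.53 ± 0.25 in low dose and 10.19 ± 0.10 in vehicle livers, and the retinal oxidizing Aldh1a1 was lower, with 11.32 ± 0.23 and 11.56 ± 0.16. Of 8 AhR targets none differed at that level, and Cyp1a2, the liver's constitutive AhR target, averaged 12.71 ± 0.09 and 12.60 ± 0.08 (SD, n = 15 and 4).

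Among 23 Nrf2 targets, 4 were higher and none lower at an unadjusted p under 0.05. Beside Txnrd1, they included the sulfiredoxin gene Srxn1 with 8.13 ± 0.19 in low dose and 7.85 ± 0.11 in vehicle livers. A second probe set of Srxn1, of low signal, had the opposite sign. Of 25 glutathione transferases and sulfotransferases 1 was higher, Gstm7 with 8.46 ± 0.14 and 8.17 ± 0.15. Of 22 genes of alcohol and aldehyde oxidation, a route open to alcohols such as MCHM, none was higher and 2 were lower, one of them the mitochondrial Aldh1b1 with 7.45 ± 0.52 in low dose and 8.06 ± 0.22 in vehicle livers (SD, n = 15 and 4). Of the 13 medium-chain acyl-CoA synthetases and glycine conjugation genes none differed.

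Lipid genes were read by pathway. Of 21 genes of cholesterol synthesis and uptake none differed at an unadjusted p under 0.05, and 17 lay above 0. Without vehicle liver-104, 3 were higher with a list median of 0.12, and without liver-108 only 10 of the 21 lay above 0, with a median of 0.00. Srebf2, the factor that drives the pathway, averaged 7.80 ± 0.09 in low dose and 7.68 ± 0.12 in vehicle livers. Of 24 genes of fatty acid and triglyceride synthesis only Scd differed, and it was lower. Of 37 PPAR-alpha and fatty acid oxidation genes 7 were higher and 1 lower. Eci1, an isomerase of fatty acid oxidation, lay between 10.94 and 11.80 log2 units in low dose livers with a median of 11.34, against 11.34, 10.87, 11.07 and 10.99 in vehicle livers. Cyp4a3, a fatty acid omega-hydroxylase, averaged 11.36 ± 0.15 and 11.03 ± 0.27, with vehicle liver-104 at 11.43. The lower member was Pdk4, the kinase that holds back glucose oxidation in fasting, with 9.15 ± 0.47 and 9.81 ± 0.43 (SD, n = 15 and 4). Without vehicle liver-104, 10 members were higher, and without another vehicle liver 2 to 4 were.

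Genes of fasting, amino acids and hormones had few members apart. Of 24 gluconeogenesis and fasting genes 1 was higher, the glycogen targeting subunit Ppp1r3b with 11.13 ± 0.34 in low dose and 10.67 ± 0.57 in vehicle livers, and 1 was lower, which was Pdk4 again. Of 41 genes of amino acid breakdown 2 were higher, Asns and Hpd, and 1 lower, Agxt2. Asparagine synthetase, Asns, lay between 6.34 and 8.62 with a median of 7.92 in low dose livers, against 6.75, 7.21, 7.97 and 7.59 in vehicle livers, so the groups overlapped widely. Hpd, an enzyme of tyrosine breakdown, averaged 13.04 ± 0.07 and 12.93 ± 0.08, and Agxt2, a mitochondrial aminotransferase, 10.24 ± 0.12 and 10.40 ± 0.11 (SD, n = 15 and 4). Of 23 clock genes 1 was higher, the kinase Csnk1d, by 0.16 log2 units, and another of its probe sets had the opposite sign.

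Of 24 glucocorticoid targets and metallothioneins 5 were higher, among them Tsc22d3, a classical glucocorticoid target, with 9.05 ± 0.23 in low dose and 8.73 ± 0.15 in vehicle livers, and Fgf21 and Ddit4, given above. Leaving out 1 vehicle liver at a time left 2 to 4. Of 27 growth hormone and sex-specific genes 1 was lower, the growth hormone receptor Ghr, with 11.66 ± 0.11 and 11.81 ± 0.10. Of 15 genes of the thyroid hormone axis 2 were higher, including the mitochondrial glycerophosphate dehydrogenase Gpd2 with 6.66 ± 0.36 and 6.22 ± 0.41. Of 23 bile acid genes 1 was higher, Cyp7a1, the rate-limiting enzyme of bile acid synthesis, with 10.38 ± 0.81 and 9.51 ± 0.89 (SD, n = 15 and 4). It lay between 8.41 and 11.51 log2 units in low dose livers, against 10.55, 8.72, 9.94 and 8.81 in vehicle livers, so both groups spread widely.

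Genes of protein stress held several members with a small p. Of 29 genes of ER stress and the amino acid response 7 were higher and none lower. Trib3, a pseudokinase induced by ATF4, lay between 7.61 and 10.20 log2 units in low dose livers with a median of 8.39, against 7.15, 7.48, 8.15 and 7.72 in vehicle livers. Psat1, an enzyme of serine synthesis, lay between 6.77 and 9.16 with a median of 8.56, against 6.84, 7.47, 8.04 and 8.05. Herpud1, a membrane protein of ER associated degradation, averaged 10.71 ± 0.17 and 10.43 ± 0.21 (SD, n = 15 and 4). The mean of the list lay between 8.80 and 9.47 in low dose livers, against 8.64 in vehicle liver-104 and 8.87 to 8.97 in the other vehicle livers. Without vehicle liver-104 none of the 29 was higher and 1 was lower, so this count rested on that liver.

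Of 17 heat shock genes 6 were higher, and 15 lay above 0. Hspb8, a small heat shock protein, lay between 9.15 and 9.75 log2 units in low dose livers with a median of 9.46, against 9.32, 9.17, 9.13 and 9.33 in vehicle livers. Its partner Bag3 averaged 8.22 ± 0.21 and 7.94 ± 0.21, and the Hsp40 gene Dnaja1 averaged 10.90 ± 0.12 and 10.78 ± 0.03 (SD, n = 15 and 4). Leaving out 1 vehicle liver at a time left 2 to 5 members. Of 17 p53 and DNA damage genes 2 were higher, Aen and the cell cycle inhibitor Cdkn1a with 8.04 ± 0.32 and 7.77 ± 0.25. Of 26 immediate early genes 1 was higher, the matrix protein gene Ccn2, with 5.99 ± 0.42 and 5.50 ± 0.10.

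Genes of dividing cells were mostly below 0, by an amount that moved with the vehicle livers. Of 32 mitosis and G2/M genes none differed at an unadjusted p under 0.05, while 31 lay below 0 with a median of -0.19 log2 units. Ccnb2, a B-type cyclin, lay between 5.00 and 6.65 in low dose livers with a median of 5.72, against 5.07, 6.63, 6.36 and 6.89 in vehicle livers. The mean of the list lay between 4.96 and 6.06 in low dose livers, against 4.92 in vehicle liver-104 and 5.65 to 6.12 in the other vehicle livers. Without vehicle liver-104, 11 members were lower and the median was -0.43. Without liver-105 or liver-106 the median was -0.17 and -0.21, and 1 and 0 members were lower. Without liver-108 none was lower, the median was -0.09 and 10 of the 30 members then tested lay above 0. Foxm1, a transcription factor of this program, averaged 5.31 ± 0.24 and 5.52 ± 0.10, and Cdca3 averaged 6.13 ± 0.43 and 6.66 ± 0.49 (SD, n = 15 and 4). Of 27 DNA replication genes 1 was lower, the thymidine kinase Tk1, with 7.12 ± 0.20 and 7.37 ± 0.05.

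**Figure D4:**
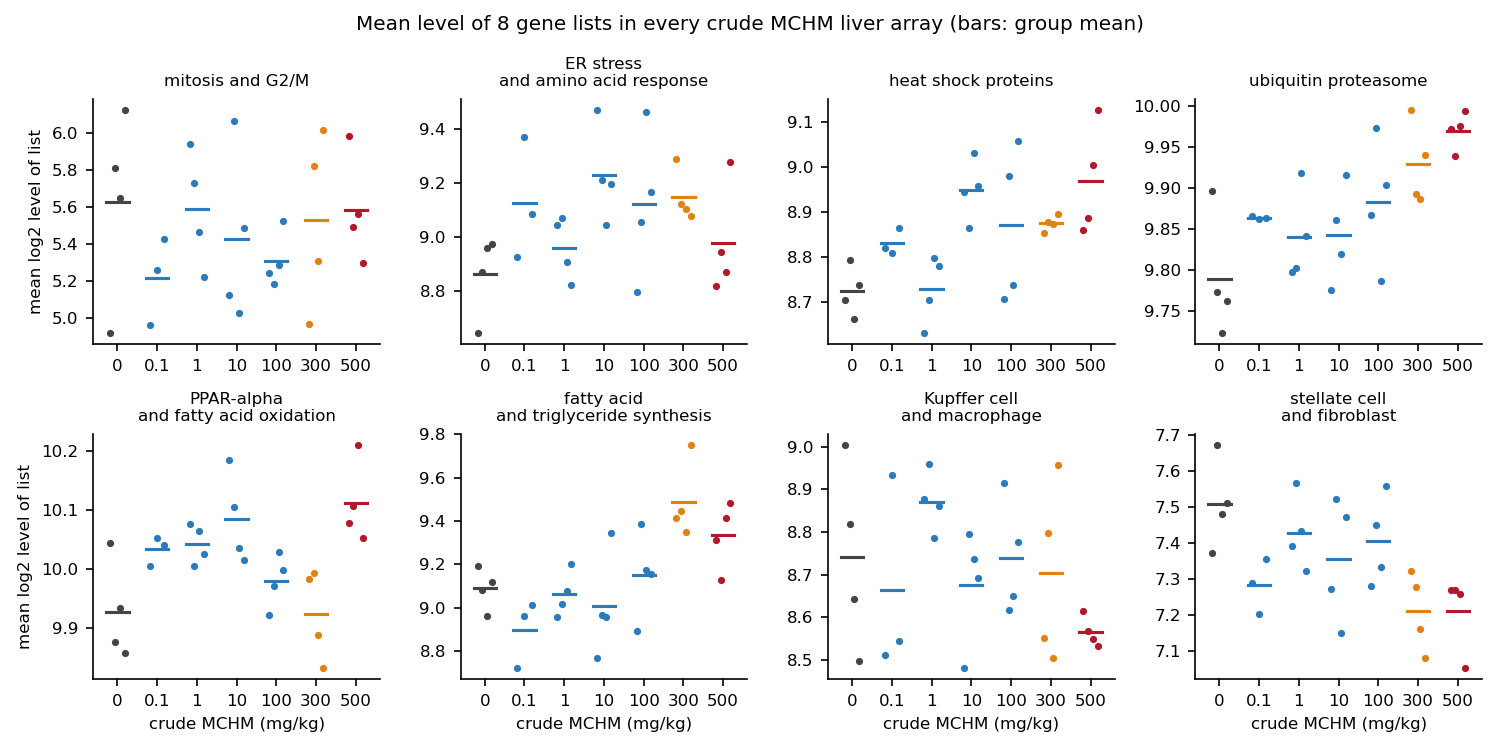
Mean log2 level (y axis) of 8 gene lists in every crude MCHM liver array by dose in mg/kg (x axis), with points for arrays and bars for group means. Vehicle liver-104 lies at 4.92 in the mitosis panel, 8.64 in the ER stress panel and 10.04 in the PPAR-alpha panel, apart from the other vehicle livers, and the fatty acid synthesis list is highest at 300 mg/kg.

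Immune and plasma protein lists showed few members apart. Of 31 interferon response genes 1 was lower, the antiviral gene Rsad2, with 7.02 ± 0.22 in low dose and 7.27 ± 0.05 in vehicle livers, and of 20 antigen presentation genes none differed. The mean of the interferon list lay between 7.00 and 7.61 in low dose livers with a median of 7.26, against 7.59, 7.37, 7.45 and 6.91 in vehicle livers, where liver-108 was below every low dose liver. Without that liver 4 of the 31 genes were lower and 29 lay below 0, with a median of -0.21. Without vehicle liver-104, 1 was higher, none was lower and the median was 0.05, and without liver-105 or liver-106 none differed. Of 25 acute phase proteins 2 were lower. A2m, a protease inhibitor that rats make in inflammation, lay between 8.96 and 10.41 log2 units in low dose livers with a median of 9.53, against 9.48, 10.41, 9.98 and 10.61 in vehicle livers. Crp averaged 12.24 ± 0.10 and 12.36 ± 0.10, and of 19 apolipoproteins 1 was lower, Apoa1 of high density lipoprotein, with 13.33 ± 0.07 and 13.44 ± 0.09 (SD, n = 15 and 4).

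Genes that every cell uses stayed within narrow ranges. Of 25 ribosomal proteins, 47 respiratory chain genes, 34 splicing genes and 20 hypoxia and glycolysis genes, none differed at an unadjusted p under 0.05. Of 31 proteasome genes 30 lay above 0, with a median of 0.07 log2 units, and 2 were higher. These were Psmd3 with 8.16 ± 0.13 in low dose and 7.98 ± 0.21 in vehicle livers, and Psmc5 with 9.59 ± 0.14 and 9.45 ± 0.06 (SD, n = 15 and 4). The proteasome mean lay between 9.78 and 9.97 in low dose livers, against 9.90 in vehicle liver-104 and 9.72 to 9.77 in the other vehicle livers. Without vehicle liver-104, 10 members were higher, and without another vehicle liver 0 or 1 were.

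Cell type markers were read the same way, to see whether the makeup of the pieces of liver differed. Of 8 pericentral hepatocyte markers 2 were higher, Cyp2e1, the ethanol oxidizing cytochrome P450, with 13.58 ± 0.07 in low dose and 13.42 ± 0.16 in vehicle livers, and the Wnt target Axin2 with 7.21 ± 0.23 and 6.71 ± 0.29. Of the 8 markers 6 lay above 0, and 4 did without vehicle liver-108. Of 10 periportal markers 1 was lower, Aldh1b1, and 8 lay below 0, with a median of -0.06 log2 units. As a mean over the list, the periportal markers lay between 10.29 and 10.60 in low dose livers with a median of 10.44, against 10.54, 10.57, 10.55 and 10.56 in vehicle livers. This mean was below every vehicle liver in 13 of the 15 low dose livers and above every vehicle liver in 1. The vehicle livers had a narrow range here, with an SD of 0.013 against 0.081 in low dose livers. Such a count was not particular to this list. The p53 list mean was above every vehicle liver in 13 low dose livers and the ER stress list mean in 11, while the mitosis list had 0 on either side. For the pericentral markers the list mean lay between 10.38 and 10.67 in low dose livers with a median of 10.48, against 10.47, 10.39, 10.35 and 10.24 in vehicle livers. Of 11 hepatocyte markers 2 were higher and 1 lower at an unadjusted p under 0.05. The hepatocyte factor Hnf4a averaged 11.84 ± 0.25 and 11.56 ± 0.21 (SD, n = 15 and 4). All 13 stellate cell and fibroblast markers lay below 0, with a median of -0.10 log2 units, and 1, the collagen gene Col1a1, was lower at an unadjusted p under 0.05. The mean of these markers lay between 7.15 and 7.57 in low dose livers and between 7.37 and 7.67 in vehicle livers. Their part in the other differences was not tested.

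Of 12 T and NK cell markers 10 lay below 0 and 1 was lower, the interleukin 2 receptor chain Il2rb, with 5.25 ± 0.25 in low dose and 5.52 ± 0.20 in vehicle livers (SD, n = 15 and 4). Of 9 Kupffer cell and macrophage markers, 10 endothelial markers, 7 cholangiocyte markers, 7 B and plasma cell markers and 5 erythroid markers none differed. Of 7 kidney markers 1 was higher, the glucose transporter Slc5a2, with 5.61 ± 0.23 and 5.32 ± 0.10. Of 8 fat cell markers 1 was lower. Markers of skeletal muscle, pancreas and neutrophils were mostly under the filter, with 2, 4 and 4 tested.

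Single doses gave no called gene either. By limma, 0 genes passed at 0.1, 1, 10 and 100 mg/kg against vehicle, and the smallest adjusted p were 0.0701, 0.683, 0.443 and 0.241. At an unadjusted p under 0.05 there were 703 genes (6.17%) at 0.1 mg/kg, 546 (4.79%) at 1 mg/kg, 752 (6.6%) at 10 mg/kg and 857 (7.52%) at 100 mg/kg. The counts had no order by dose, and all 4 comparisons share the vehicle arrays. Among the low dose livers themselves, with no vehicle array involved, a trend over the rank of the dose gave 0 called genes and 355 (3.11%) at an unadjusted p under 0.05. A test for any difference among the 4 doses gave 0 called genes and 630 (5.53%).

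Genes that responded in other rats give a second reading, since they were chosen without any array of the crude MCHM set. Their values here still use the same 4 vehicle livers. With 500 mg/kg MCHM, 33 genes rose in liver with a median of 0.64 log2 units. In low dose crude MCHM livers their median was 0.03, 22 of 33 lay above 0, and 4 were higher and 1 lower at an unadjusted p under 0.05, beside 4.86% and 2.05% of all genes. By dose, their median was 0.00 at 0.1 mg/kg, 0.01 at 1 mg/kg, 0.02 at 10 mg/kg, 0.13 at 100 mg/kg, 0.26 at 300 mg/kg and 0.45 at 500 mg/kg. Of the 25 genes that fell with MCHM the median was -0.05 in low dose livers and -0.27 at 500 mg/kg. In low dose livers 18 of the 25 lay below 0, and 2 were lower and 1 higher. With 1000 mg/kg PPH, the genes that rose had a median of 0.04 in low dose livers and 0.22 at 500 mg/kg. Of these, 99 lay above 0 and 39 below in low dose livers, and 12 were higher and 2 lower. The 61 genes that fell with PPH had a median of -0.05 in low dose livers and -0.14 at 500 mg/kg, with 47 below 0, 7 lower and none higher in low dose livers. Under the alternatives the low dose median of the 33 genes that rose with MCHM ran from -0.0123 to 0.0996. Those of the genes that fell with MCHM, or rose or fell with PPH, kept their sign.

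**Figure D5:**
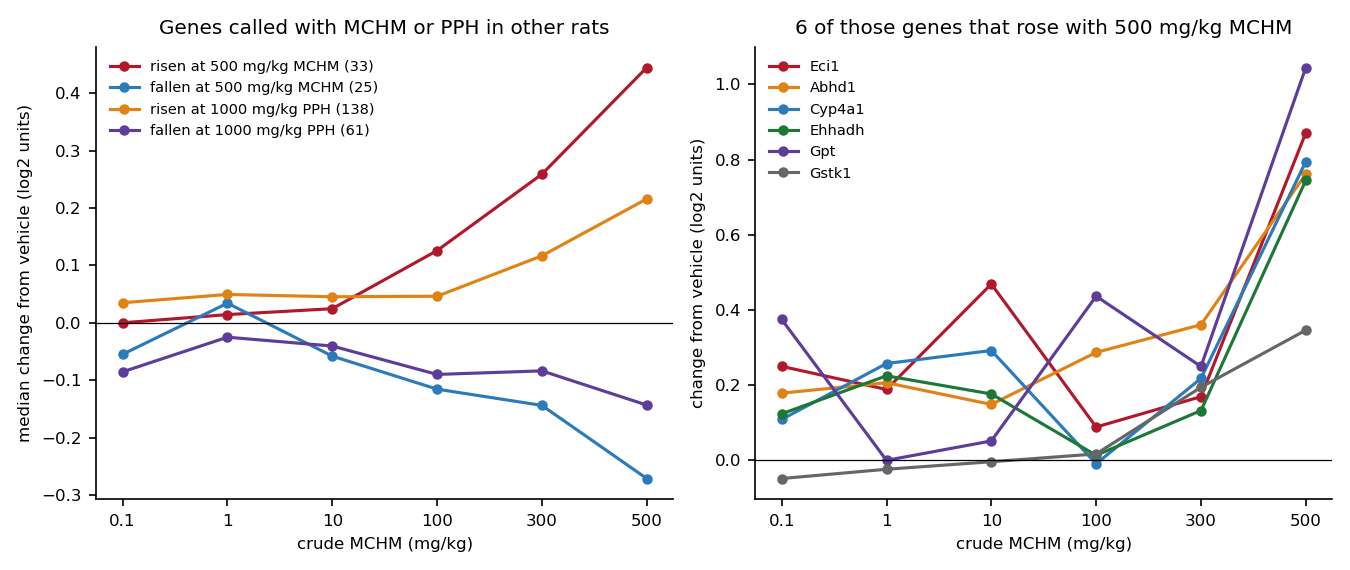
Median difference from vehicle in log2 units (left y axis) of genes that rose or fell with MCHM or PPH in other rats, and the difference of 6 single genes (right y axis), by crude MCHM dose in mg/kg (x axes). The median of the 33 genes that rose with 500 mg/kg MCHM is at most 0.02 up to 10 mg/kg and reaches 0.45 at 500 mg/kg.

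Abhd1, a member of the alpha/beta hydrolase family and 1 of those 33 genes, lay between 8.06 and 8.43 log2 units in low dose livers with a median of 8.26, against 8.33, 7.93, 8.03 and 7.88 in vehicle livers. It differed from vehicle by 0.18, 0.21, 0.15 and 0.29 at the 4 low doses, none of which passed the test. Of the others, the kappa class glutathione transferase Gstk1 averaged 11.12 ± 0.07 in low dose and 11.14 ± 0.11 in vehicle livers. Gpt, the alanine aminotransferase that clinics assay in serum, averaged 9.11 ± 0.37 and 8.89 ± 0.34. The peroxisomal enzyme Ehhadh averaged 10.99 ± 0.18 and 10.85 ± 0.27, and the omega-hydroxylase Cyp4a1 averaged 11.05 ± 0.23 and 10.89 ± 0.24 (SD, n = 15 and 4). In Ehhadh vehicle liver-104 stood at 11.25, above the other 3.

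The low dose livers differed from those of the higher doses, a comparison without vehicle arrays. At 500 mg/kg, 280 genes (2.46%) changed relative to the low doses, 175 of them up (1.53%) and the rest down (0.921%). At 300 mg/kg, 37 genes changed (0.325%), 22 up (0.193%) and 15 down (0.132%). Against vehicle, 1.01% of the genes changed at 300 mg/kg (0.877% up) and 0.675% at 500 mg/kg (0.517% up, 0.158% down). Gsta3, an alpha class glutathione transferase, had 8.86, 8.52, 8.87 and 8.39 log2 units at 500 mg/kg and lay between 6.31 and 8.17 in low dose livers. The groups did not overlap, and Gsta3 rose by 1.34 (limma, adjusted p = 0.00702). Serpina7, the thyroxine carrier of plasma, had 8.91, 8.68, 8.95 and 8.19 at 500 mg/kg and lay between 9.11 and 10.42 in low dose livers, and it fell by 1.11 (adjusted p = 0.00194). Eci1 had 12.05, 11.86, 11.92 and 11.92 at 500 mg/kg, above every low dose liver, and rose by 0.62 (adjusted p = 0.00032).

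Other genes of the 500 mg/kg comparison with the low doses were Thrsp, a lipogenic gene that thyroid hormone raises, with a rise of 1.17 (limma, adjusted p = 0.00419), the secreted whey acidic protein family member Wfdc21 with a rise of 1.03, and A2m, which fell by 1.02. Abhd1 rose by 0.56, Cyp4a1 by 0.63, Ehhadh by 0.61, Gpt by 0.83 and Gstk1 by 0.36, all with an adjusted p under 0.05. Among the lists, 6 of 37 PPAR-alpha genes, 5 of 21 CAR and PXR targets, 4 of 17 heat shock genes and 4 of 25 glutathione transferases and sulfotransferases rose at 500 mg/kg relative to the low doses. No member of these lists fell. Over all genes 1.53% rose and 0.921% fell. Other lists had called members too: 4 of 47 respiratory chain genes and 3 of 41 genes of amino acid breakdown rose. Of 19 apolipoproteins 2 fell, as did 2 of 23 bile acid genes.

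At 300 mg/kg, 8 of 24 genes of fatty acid and triglyceride synthesis rose relative to the low doses and none fell, with a list median of 0.27 log2 units. Over all genes 0.193% rose in this comparison. Scd had 12.24, 12.40, 11.85 and 12.27 at 300 mg/kg, above every low dose liver, and rose by 1.92 (limma, adjusted p = 0.0239). Against vehicle the same 300 mg/kg livers differed in Scd by 0.80 (adjusted p = 0.445). Thrsp rose by 1.18 and the fatty acid elongase Elovl6 by 1.11 relative to the low doses. The kinase gene Nim1k had 5.12, 4.68, 5.79 and 6.02 at 300 mg/kg, below the 6.31 to 7.59 of low dose livers, and fell by 1.67 (adjusted p = 0.00318). It also fell at 500 mg/kg, by 1.02 (adjusted p = 0.021). The oxidase gene Nox4 fell by 0.88 and the matrix protein gene Sparcl1 by 0.78 at 300 mg/kg relative to the low doses. The count at 300 mg/kg was 3 without its liver-138 or liver-134 and 19 without its liver-137. Without liver-138 the called genes were Nim1k, Tkfc and Tm7sf2, and without liver-134 they were Nim1k, Sparcl1 and Tm7sf2. Scd, Thrsp and Elovl6 were thus not called without either of these livers. That at 500 mg/kg was 90 without its liver-144, 118 without liver-143 and 147 without liver-139.

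Several genes of small p were called at 300 mg/kg against vehicle, a comparison that shares the vehicle arrays, which favours such calls. Only called genes are given for it, beside 0.877% of all genes that rose. Utp25 rose by 0.53 log2 units (limma, adjusted p = 0.0114), Prpf19 by 0.32 (adjusted p = 0.0136) and Kti12 by 0.47 (adjusted p = 0.0389). Relative to the low doses, Utp25 differed by 0.13 at 300 mg/kg (adjusted p = 0.521) and by -0.11 at 500 mg/kg (adjusted p = 0.554). Nol8 fell by 0.44 at 500 mg/kg relative to the low doses (limma, adjusted p = 0.0188), which placed it at the vehicle level. It had been picked for its small p among genes higher in those same low dose livers, which favours a fall in this comparison.

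The mixture and its main constituent were compared at matched low doses, 0.1, 1, 10 and 100 mg/kg of each. By limma, 0 of 11624 genes differed between the crude MCHM and the MCHM change, with a smallest adjusted p of 0.721 and 506 genes at an unadjusted p under 0.05. The 95% interval of the difference lay within 1.5-fold for 90.3% of the genes, which does not show that both act alike. MCHM itself at these doses also gave 0 called genes against its own vehicle, with 637 at an unadjusted p under 0.05. Utp25 averaged 6.77 ± 0.30 in low dose and 6.68 ± 0.11 in vehicle livers of the MCHM set (SD, n = 16 and 5). The crude MCHM change in Utp25 minus that of MCHM was 0.32 with an interval of -0.01 to 0.65. For Kcnj15 this difference was -1.05 with an interval of -1.70 to -0.40. Both genes were picked by their small p on the same crude MCHM livers, and these intervals are not adjusted for that choice. Neither difference was called.

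Against PPH at 1, 10 and 100 mg/kg, 0 genes differed in their change by limma, with a smallest adjusted p of 0.0577 and 814 genes at an unadjusted p under 0.05. PPH at those doses changed 166 genes against its own vehicle (1.43%), 142 up (1.22%) and 24 down (0.206%). This count stands beside 0 for crude MCHM, but the difference between the chemicals was called for no gene.

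The vehicle livers of the crude MCHM set differed from those of the MCHM and of the PPH set. The MCHM and PPH vehicle livers were not tested against each other, so these counts do not show which set stands apart. Against the MCHM vehicle livers, 1327 of 11624 genes (11.4%) differed at an adjusted p under 0.05 by limma, 285 higher (2.45%) and 1042 lower (8.96%) in the crude MCHM vehicle livers. Against the PPH vehicle livers 296 differed (2.55%), of which 152 were lower (1.31%) and the rest higher (1.24%). Kap, an androgen regulated gene of the kidney, averaged 5.88 ± 0.45 log2 units in crude MCHM vehicle livers (SD, n = 4), against 4.26 ± 0.36 in MCHM and 4.09 ± 0.23 in PPH vehicle livers (SD, n = 5 each), a difference of 1.62 and of 1.79. The low dose livers of the crude MCHM set lay with their own vehicle in this gene, at 5.80, and the kidney had 14.53 in rats given vehicle. Bod1l1, a protein of replication fork protection, averaged 6.01 against 4.95 and 4.53, and Ccn2 averaged 5.50 against 6.57 and 6.70. Relative to the MCHM vehicle livers, the transcription factor genes Klf12 and Pou2f1 differed by 1.11 and -1.12, and the fatty acid binding protein gene Fabp4 by -1.16. Relative to the PPH vehicle livers, the chromatin remodeller Atrx differed by 1.47, the circadian deadenylase Noct by -1.51 and the secreted protein gene Tsku by -1.25. These groups differ in set as well as in rats, and the 2 cannot be told apart.

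For several genes with a small p between low dose and vehicle livers, the other vehicle groups lay nearer to the low dose level. Both comparisons share the 4 crude MCHM vehicle arrays, so the values stand side by side without a test. Utp25 averaged 6.78 in low dose and 6.37 in vehicle livers of the crude MCHM set, beside 6.68 and 6.80 in MCHM and PPH vehicle livers. Wdr77 averaged 8.45 and 8.14, beside 8.47 and 8.48. Slc3a2 averaged 9.91 and 9.48, beside 10.02 and 9.95. Kcnj15 ran the other way, with 4.90 and 5.66, beside 4.75 and 5.19. Txnrd1 did not have this pattern against MCHM, with 9.64 and 9.38, beside 9.42 in MCHM and 9.53 in PPH vehicle livers.

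Relative to the MCHM vehicle livers, the crude MCHM vehicle livers were lower in Rpp14, with a difference of -0.38 log2 units. The difference was -0.29 in Prpf19, -0.54 in Slc3a2, -0.34 in Pak1ip1 and 0.91 in Kcnj15. These genes were named for differences that use the same crude MCHM vehicle arrays, which favours such values, so no p-value is given. Only genes called in this comparison are listed, beside 11.4% of all genes called in it. The part of the vehicle livers in the differences of these genes was not tested.

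The kidney of crude MCHM rats was compared in 8 low dose and 3 vehicle arrays. By limma 0 of 11888 genes differed between the liver and the kidney change, with a smallest adjusted p of 0.453 and 610 genes at an unadjusted p under 0.05. In kidney alone 26 genes rose at low doses and none fell (0.219%). Utp25 differed by 0.01 log2 units between low dose and vehicle kidneys, and the liver change minus the kidney change was 0.39 with an interval of 0.14 to 0.65. Nol8 differed by 0.81 in kidney (adjusted p = 0.115), and its liver change minus its kidney change was -0.37 with an interval of -0.93 to 0.19. Kcnj15 stood at 12.27 in vehicle kidneys and differed by -0.06 there. These genes were picked by their small p on the same liver arrays. The intervals are not adjusted for that choice, and no tissue difference was called. The tissue comparison called 0.875% of the genes without vehicle kidney-104, 21 genes (0.177%) without kidney-120 at 1 mg/kg and 1 gene, Sult1c3, without kidney-119 at 1 mg/kg.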

How the data were processed

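The values were log2 expression values for 31099 probe sets of 151 arrays, deposited by the authors in a series table. The submitters' processing notes name RMA, which corrects background and normalizes arrays by quantiles, and give no version. Whether tissues and chemical sets were normalized together is not given in the sources used here. The array annotation gave 20832 probe sets 1 gene symbol, for 14218 genes, 436 several symbols and 9831 none here. The last 2 kinds were left out.

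Where a gene had several probe sets, that of the highest liver mean was kept. A gene was tested if it lay above the 40th percentile of liver values, 4.69 log2 units, in at least 3 arrays of the fit. Group means of all 27 crude MCHM liver arrays (7 groups) were fitted with lmFit and eBayes in limma 3.58.1 (R 4.3.3, with data.table version 1.17.8 and statmod 1.5.0). P-values are two-sided and were adjusted by Benjamini-Hochberg over all genes tested, and intervals are 95% intervals. The printed mean of low dose livers is the mean of the 4 dose means and its SD is that of the 15 arrays. Differences between sets were fitted over all 81 liver arrays, and the tissue difference over 27 liver and 17 kidney arrays. The precision is limited by the number of arrays.

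Named genes were the 10 of smallest p in each direction (since none was called), in each list the members of smallest p (at most 3), the genes without overlap, and the 3 largest called in each other comparison and direction. Others, including the genes of 2-fold or more, Asns, Abhd1, Cyp4a1, Ehhadh, Gpt, Gstk1 and members of 5 gene families, were chosen after their values were seen. The groups and the 31 pathway and 15 cell type lists were chosen with earlier results of these data known. In 10 runs on simulated data with 200 changed genes of 11402, the fit of low doses against vehicle recovered 34.3% of changes of 0.25 log2 units, 80.9% of 0.5 and 98.2% of 1, and 6.42% of calls were false. These shares hold for 200 changed genes. With fewer changed genes the adjusted p is harder to pass, so they do not carry over to data with 0 called. In the data, the 7 genes measured at 2-fold or more were not called. Alternatives left out the filter, averaged a gene's probe sets or used a further quantile normalization, array weights, another prior, other sets of arrays in the fit, the beta-actin difference as a covariate, each dose or array left out, and a replicate block between tissues.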

Additional observations from a re-analysis of the deposited data

Results flagged for a closer look

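In 15 of 146 sets of 4 vehicle values examined (genes named in the text and list means), 1 array stood apart from the other 3, by a gap, as a share of the range of the 4, above Dixon's 95% critical value. A rate of about 1 in 20 holds by chance for groups not chosen on their values. Most of these genes were named from differences that use the same 4 vehicle arrays, so the count cannot be set against that rate. Vehicle liver-104 was high in Nup54 (gap 0.917 of the range), Ppara (0.847), Alas1 (0.835), Cyp4a3 (0.95) and Ehhadh (0.872), and low in Fgf21 (0.832) and Ubd (0.905). Ppara stood at 6.73 log2 units there and at 4.51 to 4.85 in the other vehicle livers, and Ubd at 5.54 and 7.96 to 8.21. Vehicle liver-108 was low in Ugt2b (0.96) and Ppp2r2d (0.951) and high in Cdkn1a (0.929). Vehicle liver-106 was low in Atrx (0.986) and Gstm7 (0.842) and high in Aldh1b1 (0.944). Vehicle liver-105 was high in Pigu (0.927) and in the mean of the gluconeogenesis and fasting list (0.897), at 9.25 beside 9.19 in the others.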

How the results depend on the processing

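The count for low doses against vehicle was 0 under every alternative except without liver-129 at 100 mg/kg, with 2 genes. Its smallest adjusted p lay between 0.0675 (without the 1 mg/kg group) and 0.595 over the settings that leave out no single array, and 971 genes had an unadjusted p under 0.05 without vehicle liver-104. With 1 array left out at a time the counts ranged from 0 to 2 for low doses against vehicle, from 0 to 5 at 100 mg/kg, from 3 to 46 for 300 mg/kg and from 90 to 319 for 500 mg/kg against low doses, from 0 to 1 for crude MCHM minus PPH (Krt78), from 0 to 0.875% of genes for liver minus kidney, from 804 to 1255 for the crude MCHM against the MCHM vehicle livers (804 without vehicle liver-106), and from 167 to 360 against the PPH vehicle livers (167 without vehicle liver-108). The 5 genes at 100 mg/kg, all without its liver-129, were Kti12, Otub2, Slc3a2, Utp25 and Yars1. With array weights the count was 451 for 500 mg/kg against low doses and 477 for the crude MCHM against the PPH vehicle livers. With no filter it was 22 for 300 mg/kg against low doses, and with an intensity trend and robust prior 76, and 2 at 0.1 mg/kg. With the mean of all probe sets Eci1 reversed, to -0.0137 in low doses against vehicle. With 1 array left out at a time Ugt2b ranged from -0.5933 to 2.2861 and Gstk1 from -0.064 to 0.0201, and both turned their sign without vehicle liver-108. The cause was not tested.

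Among 2717 values of 85 named genes under the alternatives 2712 kept direction and side of the threshold, and of 1600 list medians 1571 moved by less than the vehicle SD. Of 688 values in the other comparisons 85 lost their call, with Elovl6, Sparcl1 and Nox4 at 300 mg/kg the most often. No paired analysis was possible between doses and vehicle because they share no numbers. Between tissues, 7 of 16 same-numbered pairs had a correlation over 0.1, so the numbers were not taken to pair the samples. With the replicate block 0 genes differed between tissues (smallest adjusted p = 0.361, block correlation 0.0568). The 4 vehicle arrays limit the precision. Changes of 0.25 log2 units were mostly missed even in the simulation with 200 changed genes, and with 0 genes called the adjusted p is harder to pass. Utp25, at 0.41 log2 units, was not called. Larger changes could be missed too, above all in genes that vary within a group.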

Other observations

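Some families to which genes of small p belong were looked at after their values had been seen, and are given as a description with no test. Over all genes 4.86% were higher at an unadjusted p under 0.05 and 54.1% lay above 0. Of 17 cytosolic aminoacyl-tRNA synthetases, which load tRNAs with amino acids, 14 lay above 0 in low dose minus vehicle livers and 10 were higher at an unadjusted p under 0.05, with a median of 0.18 log2 units. Alanyl-, asparaginyl- and tyrosyl-tRNA synthetase (Aars1, Nars1 and Yars1) differed by 0.18, 0.30 and 0.29. The mean of the family lay between 8.94 and 9.27 in low dose livers, against 8.90, 8.86, 9.11 and 9.04 in vehicle livers, so the groups overlapped. Of 12 mitochondrial synthetases 8 lay above 0, none was higher at that level, and the median was 0.02.

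All 10 Utp genes of the small subunit processome lay above 0, 5 of them at an unadjusted p under 0.05, with a median of 0.13 log2 units. Of 17 Nop and Nol genes 16 did, 9 of them at that level, and all 8 subunit genes of RNA polymerase I did, 3 of them at that level. Nolc1, a nucleolar phosphoprotein, differed by 0.37, and a probe set of it with low signal had the opposite sign. The mean of the Nop and Nol genes lay between 7.49 and 7.72 in low dose livers, against 7.46, 7.44, 7.49 and 7.50 in vehicle livers. That of the Utp genes lay between 7.06 and 7.50, against 7.17, 7.14, 7.14 and 7.20. For the RNA polymerase I genes it lay between 7.19 and 7.55, against 7.23, 7.23, 7.21 and 7.33. The groups overlapped in all of these families. In low dose MCHM livers the medians of the synthetase, Utp, Nop and Nol, and Polr1 families against their own vehicle were 0.07, 0.06, 0.04 and 0.06 log2 units. In low dose PPH livers they were 0.03, 0.02, 0.07 and 0.07, and in low dose kidneys of the crude MCHM set 0.04, 0.01, 0.04 and 0.02. Against the low doses, the medians of these 4 families were 0.26, 0.14, 0.12 and 0.07 at 300 mg/kg and 0.02, -0.04, -0.03 and -0.08 at 500 mg/kg. That comparison uses no vehicle array, but it shares the low dose arrays on which the families were chosen, which favours lower values. The mitochondrial synthetases had 0.08 and 0.13 at these doses.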
